A study of Homo sapiens with 18 samples.

Results

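The comparison described here is between 4N-1, a tetraploid clone of RPE1 cells, and 2N-1, the diploid clone it was paired with, across all genes above 0 in at least 3 of their 6 libraries. These are 6 of the 18 libraries of the study, and 31773 of 57773 listed genes met the rule. Of these, 21778 had 10 or more reads in at least 3 of the 6 libraries and were tested; 668 of them met that minimum in exactly 3 libraries, and 652 genes left out met it in 2.

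RPE1 is an immortalised human cell line derived from retinal pigment epithelium, the pigmented layer that supports the photoreceptors. Per the labels, cells were given 2.5 uM ZM447439, which blocks Aurora kinases, for 72 h, and those that lived on through several weeks were seeded at 1 cell per well. Ploidy was read by flow cytometry, and the diploid clones were taken from the plates that also gave the tetraploid ones, so both clones here went through the drug and the cloning. The other clones form pair 2 (4N-2 and 2N-2, both stained with Hoechst 33342 before a further cloning) and pair 3 (4N-3 and 2N-3). Each clone descends from 1 cell and was sequenced as 3 biological replicates, A, B and C, so the tests measure the spread between libraries of a clone and compare these 2 clones, not the 2 ploidies.

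Aurora kinases drive chromosome segregation and cytokinesis, and a cell that leaves mitosis without dividing ends with a doubled genome and an extra centrosome. Such cells are known to be held back by p53, which switches on the CDK inhibitor p21 (CDKN1A) and other targets, and by the LATS kinases of the Hippo pathway, which restrain the coactivators YAP and TAZ. Cells that go on dividing must pass from G1 into S phase, where D-type cyclins with CDK4 and CDK6 inactivate the retinoblastoma proteins and free E2F to switch on replication genes. Genes of mitosis follow later under B-MYB and FOXM1 and are repressed by the DREAM complex in resting cells, through the cell cycle homology region (CHR) in their promoters. CCAAT boxes are another element of such promoters.

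Values are in reads per M (M, mega), that is, reads recovered from the deposited RPKM values over the library divisor they imply. They are not scaled by gene length, so levels are compared between clones and not between genes. Values of a clone are given in the order A, B and C. Changes are log2 values of 4N-1 over 2N-1 on the scale log2(reads per M + 0.1), with the standard error (SE) of a limma fit. The words rose and fell are kept for genes with an adjusted p (Benjamini-Hochberg) below 0.05, and a call asks in addition for a change of at least 2-fold. Positions are those of GENCODE v29 on GRCh38, while the submitters' processing notes name hg19.

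Reads in genes numbered 37.2 to 42.0 M in the libraries of 2N-1 and 42.8 to 48.5 M in those of 4N-1, within 30422 to 32408 genes above 0. The first principal component separated the clones and held 71.5% of the variance. Library C of 2N-1 stood apart from A and B of that clone, at -24.5 on the second component against 13.8 and 14.3, and held 5.56% of its reads in mitochondrial genes against 4.04% to 4.88% in the other 5 libraries. Among the genes described below it had the highest MKI67 and the lowest EGR1 of its clone, so results are also given without it where it moves them. Of 28 defining markers of other cell types, 10 had under 10 reads over the 6 libraries, with CD3E, KRT5 and MYOD1 among those at 0. Others were expressed, among them TUBB3 at 151, 145 and 166 reads per M in 2N-1 and 96.2, 94.6 and 92.7 in 4N-1, and the summed level was 607 to 668 in 2N-1 and 574 to 590 in 4N-1. Markers of retinal pigment epithelium summed to 1175 to 1225 in 2N-1 and 1373 to 1421 in 4N-1. This sum is weighted to its members with the most reads, EZR, KRT18 and KRT8, and is no measure of identity. KRT18 went from 269, 261 and 267 to 428, 442 and 450, and KRT8 from 214, 200 and 217 to 283, 283 and 284. GPR143 went the other way, from 30.9, 31.2 and 28.9 to 0.0712, 0.042 and 0. Of the 26 markers, 8 were too low to test, among them RLBP1, TTR, TYR and DCT.

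In all, 445 genes were called higher in 4N-1 (2.04% of those tested) and 501 lower (2.30%), together 4.34%. Without the fold threshold 2320 genes rose (10.7%) and 2127 fell (9.77%), and the median change over all tested genes was 0.02. Most calls were moderate, with a median size of 1.32 among the higher and 1.23 among the lower. Changes of 4-fold or more were seen for 101 higher and 53 lower genes, and of 16-fold or more for 13 and 8. Of the genes called higher, 105 met the minimum of reads through libraries of 4N-1 alone, and 58 of those called lower met it through 2N-1 alone. Of the members of the lists described below this holds for CCND2, CCL2, HSPB7, SLC2A10, RPE65, TYRP1 and DLL3 (4N-1) and for CDKN1C, ENG, THBS2, TIMP4, IL1A, NUP210, HOXA3, HOXA11 and GPR143 (2N-1), which had to differ to be tested and are in the counts of their lists. Outside the lists it also holds for other genes named below, among them MBNL3, SLAMF7 and the UGT1A genes (4N-1) and EYA1, ZNF682 and PINCR (2N-1). The libraries of the clones did not overlap for 942 of 946 calls, against 52.2% of all tested genes. Leaving out library C of 2N-1 gave 400 higher and 446 lower calls, and 1521 and 1335 genes that rose or fell at any fold.

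**Figure D1:**
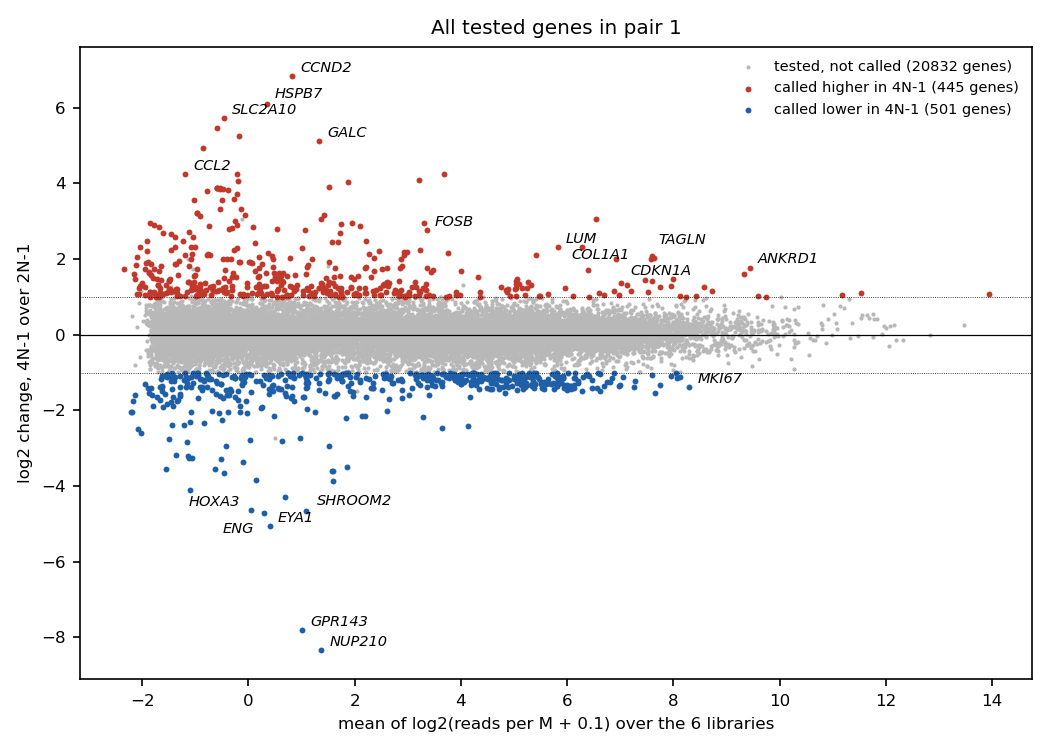
Change of each tested gene (vertical axis, log2 of 4N-1 over 2N-1) against its mean level in the 6 libraries (horizontal axis, log2(reads per M + 0.1)). Red points are the 445 genes called higher, blue points the 501 called lower and grey points the other 20832 tested genes. The called genes extend from -8.35 (NUP210) to 6.85 (CCND2).

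By type of gene, 316 of 14118 protein-coding genes were called higher and 415 lower. The long intergenic RNA genes leaned the other way, with 41 of 1267 called higher and 12 lower, while 7 of 2128 processed pseudogenes were called higher and 28 lower. Chromosome medians lay close to 0: among the autosomes the median change ran from -0.02 on chromosome 18 to 0.05 on chromosome 5. For comparison, chromosome 1 had a median of -0.25 in pair 2. The share of genes called ran from 2.84% on chromosome 21 to 6.21% on chromosome 20. None of the 13 protein genes of the mitochondrial genome passed, and their median change was -0.04.

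The pattern that set these clones apart most broadly was a lower level of the genes of the dividing cell in 4N-1. Transcripts of MKI67, which encodes the proliferation antigen Ki-67, were at 436, 503 and 603 reads per M in 2N-1 and at 192, 195 and 198 in 4N-1. All libraries of 4N-1 lay below all of 2N-1, and library C was the highest of 2N-1. The change was -1.38 (SE 0.25, adjusted p = 0.00085). In bulk RNA a smaller share of cycling cells and less transcript per cell cannot be told apart.

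Of 29 tested mitotic kinases, cyclins and regulators, 28 fell, 24 of them by 2-fold or more, and none rose; the median change was -1.29, against 0.02 over all tested genes. CDC25C, the phosphatase that activates CDK1 at the entry to mitosis, fell from 14.4, 13.8 and 13.9 reads per M to 4.39, 4.68 and 4.57. Its change of -1.60 (SE 0.15, adjusted p = 1.22e-06) was the largest fall of the list, and the clones were far apart relative to the spread within each. NEK2, a kinase that separates the centrosomes, fell by 1.54 on the log2 scale (SE 0.13), CCNB1, which encodes cyclin B1, by 1.46 (SE 0.14), and PLK1, polo-like kinase 1, by 1.41 (SE 0.16). The targets of the drug were among them. AURKA, the Aurora kinase of spindle poles, went from 68.5, 71.7 and 85.3 reads per M to 27.3, 28.0 and 29.5 (-1.40, SE 0.16, adjusted p = 1.17e-05). AURKB, the Aurora kinase of the chromosomal passenger complex, went from 38.1, 40.3 and 49.3 to 16.3, 16.0 and 16.0 (-1.39, SE 0.21, adjusted p = 0.000178). FOXM1, the transcription factor of mitotic genes, fell from 223, 241 and 284 to 95.2, 93.9 and 95.4 (-1.39, SE 0.14). The exception, named after its values were seen, was WEE1, the kinase that restrains CDK1, at 69.1, 67.2 and 67.8 in 2N-1 and 66.7, 67.1 and 67.3 in 4N-1 (-0.02, adjusted p = 0.919).

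The machinery these kinases act on was lower too. Of 34 kinetochore and centromere genes 32 fell, with a median of -1.12, and none rose. CENPF, a large protein of the outer kinetochore, went from 311, 353 and 372 reads per M to 114, 115 and 127 (-1.54, SE 0.21, adjusted p = 6.41e-05). It was among the genes called lower with the most reads per M. NDC80, which grips the microtubule end, fell by 1.45 (SE 0.15), and BIRC5, which encodes survivin, by 1.37 (SE 0.16). All 26 spindle motor and cytokinesis genes fell, with a median of -1.33. KIF20A, a kinesin of the central spindle, went from 119, 123 and 148 to 46.0, 45.8 and 47.1 (-1.48, SE 0.13, adjusted p = 3.27e-07), and ASPM, a protein of the spindle poles, fell by 1.48 (SE 0.23). In these lists each named gene had all 3 libraries of 4N-1 below all 3 of 2N-1. Of 15 condensin and cohesin genes 14 fell, with a median of -0.89. They included NCAPH, a condensin subunit (-1.44, SE 0.20), and ESPL1, which encodes separase, the protease that opens cohesin at anaphase (-1.38, SE 0.20).

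Genes of DNA synthesis fell to a like degree. Of 40 tested genes of replication and S phase 39 fell, 31 of them by 2-fold or more, with a median of -1.13. ORC1, the subunit of the origin recognition complex that varies through the cell cycle, went from 16.0, 17.7 and 21.0 reads per M to 5.76, 6.06 and 6.06 (-1.59, SE 0.24, adjusted p = 0.000137). E2F2 and E2F1, activators of S phase genes, fell by 1.52 (SE 0.25) and 1.33 (SE 0.27), POLE2, a subunit of DNA polymerase epsilon, by 1.45 (SE 0.26), and RRM2, a subunit of ribonucleotide reductase, by 1.36 (SE 0.24). Of 20 genes of homologous recombination and the Fanconi pathway 18 fell, with a median of -1.03, among them BRCA2 (-1.33, SE 0.31) and BRCA1 (-1.23, SE 0.24), which act in the repair of DNA breaks.

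The histone variant gene H2AFZ and STMN1, which encodes the microtubule-destabilising protein stathmin, were also among the genes called lower with the most reads per M. H2AFZ went from 369, 363 and 352 reads per M to 167, 164 and 182 (-1.08, SE 0.21, adjusted p = 0.00133), and STMN1 from 384, 383 and 428 to 171, 171 and 198 (-1.15, SE 0.15, adjusted p = 3.05e-05). ARL6IP1, which shapes the endoplasmic reticulum, fell by 1.11 (SE 0.10) from a mean of 410 reads per M.

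These falls differed from the changes of the other pairs. The change in pair 1 minus the mean change of pairs 2 and 3, which share no library with it, was tested in the same fit, and over all genes this difference was called for 1862, 8.55% of those tested (4.42% above 0 and 4.13% below). At any fold it passed above 0 for 14.1% of genes and below 0 for 13.2%. It was below 0 and passed for 28 of the 29 mitotic kinase genes, 32 of 34 kinetochore genes, 26 of 26 spindle genes and 39 of 40 replication genes, and above 0 for none. In pair 2, where 12% of genes were called (5.2% higher and 6.85% lower, and 19.8% rose and 22.2% fell at any fold), 15 of the mitotic kinase genes rose and 1 fell, and 18 of the kinetochore genes rose and 2 fell. In pair 3, where 2.12% were called (0.941% higher and 1.18% lower, and 3.69% rose and 3.08% fell at any fold), none of these members rose or fell. The mean level of MKI67 was 514 ± 84.3 (SD, n = 3) in 2N-1 and 195 ± 2.82 in 4N-1, in reads per M, whereas it was 442 in 2N-2 and 641 in 4N-2, and 432 in 2N-3 and 572 in 4N-3. The means of the diploid clones lay between 432 and 514, and 4N-1 had the lowest mean of the 6 clones.

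The counts of falling cell cycle genes changed little when 1 library was left out: 25 to 27 of the mitotic kinase genes, 31 to 32 of the kinetochore genes, 26 of the spindle genes and 38 to 39 of the replication genes fell in each such fit. The lowest counts came without library C of 2N-1 (25, 31, 26 and 38), in which MKI67 was highest.

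**Figure D2:**
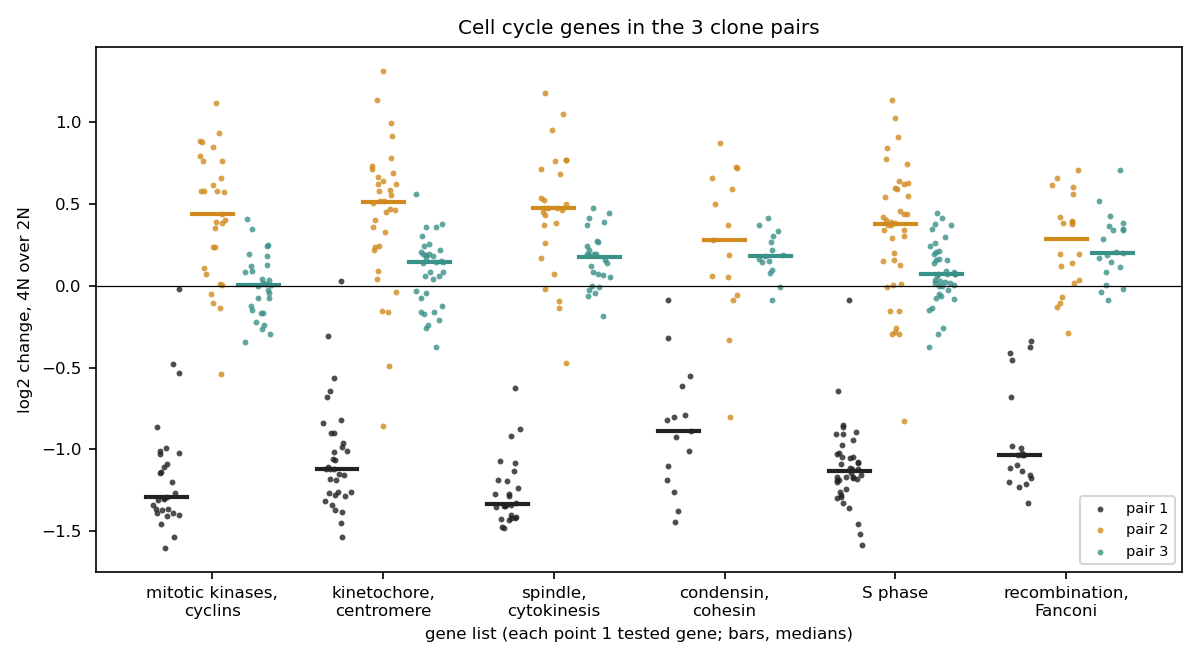
Change of each gene (vertical axis, log2 of 4N over 2N) in 6 lists of cell cycle genes, for pairs 1, 2 and 3 side by side. Points are genes and bars are medians: in pair 1 the medians run from -0.89 for condensin and cohesin to -1.33 for the spindle list, while those of pairs 2 and 3 lie at or above 0.

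Promoter sequences of the falling genes are shown because these genes moved together and the elements that time them are known. In RefSeq promoters (GRCh38.p14, 250 bases before to 50 after each listed start, both strands), 107 of the 125 falling genes of these 4 lists were found, with 136 starts. The CHR letters TTTGAA were present in 20 of 26 promoters of the spindle genes (76.9%), 14 of 29 of the kinetochore genes (48.3%) and 16 of 35 of the mitotic kinase genes (45.7%), against 1893 of 16946 promoters of all tested genes (11.2%). In the replication list they were present in 1 of 46 (2.17%). The E2F letters, TTCCCGC or TTGGCGC, were instead most frequent in the replication list, at 65.2% of promoters. Their share was 17.1% of mitotic kinase, 24.1% of kinetochore and 23.1% of spindle promoters and 12.7% of all. CCAAT was present in 58.7% to 73.1% of promoters of the 4 lists and in 34.5% of all. In a window from 100 before to 50 after the start, the share of all promoters fell to 4.70% for CHR, 21.8% for CCAAT and 6.72% for E2F, that of mitotic kinase promoters with CCAAT fell to 40.0%, and no replication promoter held the CHR letters. A match is a description of the sequence and not evidence of a bound site.

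The 250 bases before the start are printed for the 4 cell cycle genes with the largest falls, 5′ to 3′ on the strand of the gene, with CCAAT and E2F letters on either strand in capitals (ATTGG is CCAAT read on the other strand). CDC25C lies on chromosome 5 (chr5:138331878-138332127, minus strand, the start with most matches of 4 listed), ORC1 on chromosome 1 (chr1:52404424-52404673, minus strand), CENPF on chromosome 1 (chr1:214602945-214603194, plus strand) and NEK2 on chromosome 1 (chr1:211675622-211675871, minus strand).
CDC25C: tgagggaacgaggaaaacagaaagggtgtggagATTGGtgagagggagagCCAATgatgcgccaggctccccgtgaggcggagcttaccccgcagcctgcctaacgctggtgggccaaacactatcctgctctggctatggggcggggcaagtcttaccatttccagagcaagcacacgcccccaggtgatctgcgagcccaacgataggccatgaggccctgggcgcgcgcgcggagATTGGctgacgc
ORC1: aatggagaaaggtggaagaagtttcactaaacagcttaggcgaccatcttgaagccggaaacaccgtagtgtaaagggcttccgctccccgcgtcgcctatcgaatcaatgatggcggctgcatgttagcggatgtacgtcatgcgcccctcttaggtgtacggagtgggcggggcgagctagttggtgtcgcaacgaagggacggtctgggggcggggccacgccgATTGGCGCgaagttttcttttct
CENPF: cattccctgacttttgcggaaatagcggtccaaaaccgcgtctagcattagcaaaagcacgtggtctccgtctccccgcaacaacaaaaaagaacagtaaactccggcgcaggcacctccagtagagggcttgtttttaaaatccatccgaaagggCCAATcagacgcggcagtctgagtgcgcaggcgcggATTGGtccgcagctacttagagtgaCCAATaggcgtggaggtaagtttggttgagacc
NEK2: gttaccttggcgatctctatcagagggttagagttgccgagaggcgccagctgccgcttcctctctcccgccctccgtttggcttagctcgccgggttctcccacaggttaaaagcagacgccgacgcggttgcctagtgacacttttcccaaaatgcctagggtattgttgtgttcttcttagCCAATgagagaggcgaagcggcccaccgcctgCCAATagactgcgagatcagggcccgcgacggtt
CDC25C and CENPF hold 3 CCAAT boxes each and NEK2 holds 2, while in ORC1 a single run of capitals close to the start holds both an inverted CCAAT box and the E2F letters TTGGCGC, which overlap. TTTGAA was found in none of the 4 stretches.

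Among centrosome and centriole genes, which a doubled cell starts with in excess, 11 of 20 fell and 1 rose, with a median of -0.43. NINL, a ninein-like protein of centrosomes, fell from 12.3, 13.1 and 10.7 reads per M to 1.07, 1.01 and 0.87 (-3.49, SE 0.19, adjusted p = 1.06e-09). PLK4, the kinase that starts centriole duplication, fell by 1.44 (SE 0.21), and STIL and SASS6, which build the new centriole with it, by 1.20 (SE 0.21) and 0.88 (SE 0.18). OFD1, a protein of centriolar satellites, rose by 0.64 (SE 0.10). Of 9 genes that sense extra centrosomes or act as or with LATS kinases, only CASP2, the caspase of the PIDDosome, passed (-0.60, SE 0.15, adjusted p = 0.00852), and it did not pass without library C of 2N-1. LATS2 had a change of 0.20 (adjusted p = 0.303).

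In G1 the largest rise of the whole comparison was that of CCND2, which encodes cyclin D2 (chromosome 12, 4273772 to 4305350). It was at 0.0457, 0.0964 and 0.0541 reads per M in 2N-1 and at 17.9, 19.4 and 19.2 in 4N-1. This was 8 reads against 2540, or 288 times as many after scaling (counting interval 146 to 668), and a change of 6.85 (SE 0.18, adjusted p = 7.91e-14). CCND2-AS1, an antisense transcript that overlaps it, had 0 reads in 2N-1 and 400 in 4N-1, at least 121-fold higher against a floor of 3 reads over the clone. Use of the strand in counting is not stated, so reads in the overlap may belong to either gene. CCND1, the cyclin D of most epithelial cells, rose by 0.47 (SE 0.14) from 488, 532 and 589 to 727, 726 and 774, while CCND3 had a change of -0.03 (adjusted p = 0.931) and CDK6 one of -0.01 (adjusted p = 0.975).

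The inhibitors of cyclin-dependent kinases moved in both directions. CDKN1A, which encodes p21, rose from 143, 136 and 138 reads per M to 339, 327 and 332 (1.26, SE 0.09, adjusted p = 5.93e-08), and CDKN2B, which encodes p15, rose by 1.16 (SE 0.16). CDKN1C, which encodes p57, fell from 0.502, 0.723 and 0.677 to 0.119, 0.126 and 0.111 (-1.73, SE 0.37), and CDKN2C, which encodes p18, fell by 1.09 (SE 0.11). RBL1, which encodes the retinoblastoma relative p107, fell by 1.17 (SE 0.21). Of the 18 genes of this list 4 rose and 8 fell, with a median of -0.26. The count that fell was 5 without any 1 of A, B or C of 2N-1 or A or B of 4N-1.

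Most targets of p53 passed with moderate rises. Of 30, 19 rose, with a median of 0.45 over the list, and none fell, but 5 rose by 2-fold or more. Beside CDKN1A they were SPATA18, a mitochondrial quality control gene, from 4.57, 4.65 and 3.57 reads per M to 21.2, 20 and 19.7 (2.23, SE 0.15, adjusted p = 1.93e-08), the death receptor gene EDA2R (1.24, SE 0.18), the antiproliferative gene BTG2 (1.19, SE 0.10) and the RNA-binding protein gene ZMAT3 (1.06, SE 0.11). ZMAT3 rose by less than 2-fold without library C of 4N-1. MDM2, which marks p53 for destruction, went from 122, 131 and 128 to 167, 169 and 175 (0.42, SE 0.07, adjusted p = 0.000551). In pair 2, 27 of the 30 rose with a median of 1.15, and in pair 3 17 rose with a median of 0.55. The difference between pair 1 and the other pairs passed for 13 of the 30, below 0 for 10 of them, MDM2 among them (-0.60), and above 0 for 3.

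**Figure D3:**
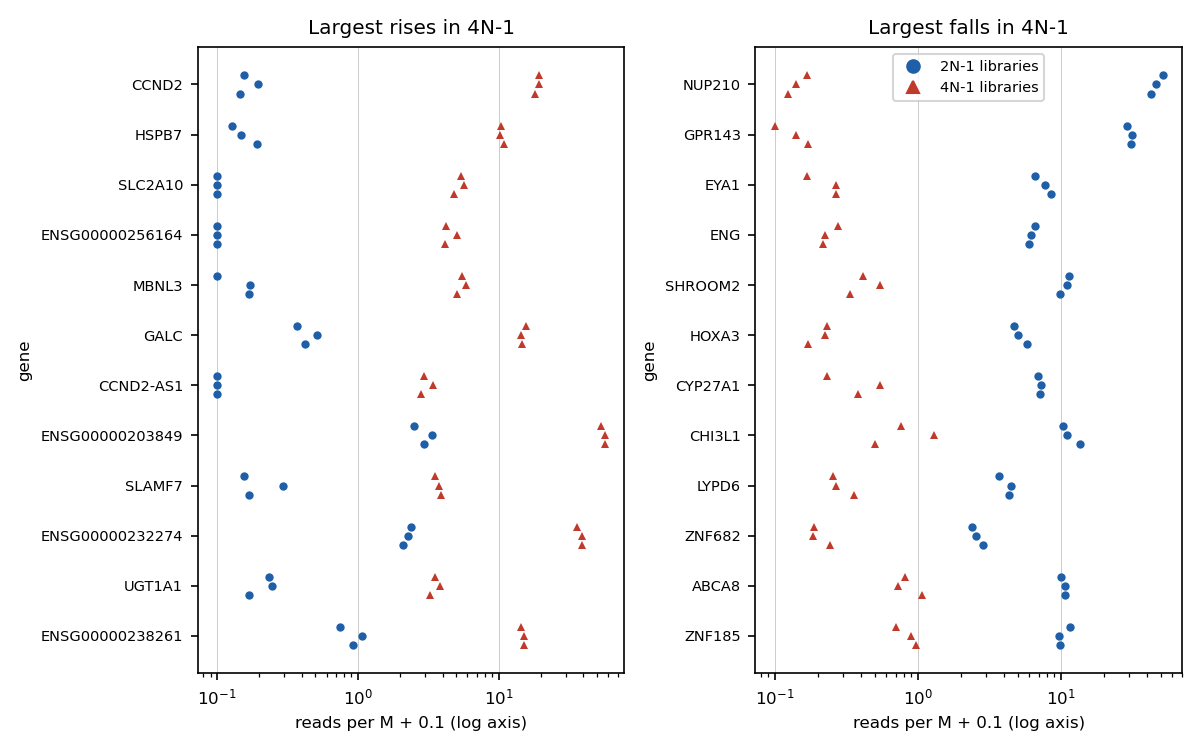
Level of the 12 genes that rose most and the 12 that fell most (horizontal log axis, reads per M + 0.1). They were taken from called genes with non-overlapping clones and 300 or more reads in the higher clone. Circles are the 3 libraries of 2N-1 and triangles those of 4N-1, with libraries at 0 reads drawn at 0.1. The clones are separated for all 24 genes because the choice required it.

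After CCND2 the largest rises were of genes with no common role. HSPB7, a small heat shock protein known from heart and muscle (chromosome 1), went from 0.0913, 0.0482 and 0.0271 reads per M to 10.9, 10.1 and 10.3, a ratio of reads of 182 (interval 87.9 to 453) and a change of 6.10 (SE 0.24, adjusted p = 1.41e-11). SLC2A10, which encodes the glucose transporter GLUT10 (chromosome 20), had 0 reads in 2N-1 and 4.74, 5.54 and 5.35 reads per M in 4N-1, which is at least 213-fold higher. Both differed from the other pairs, by 5.27 and 5.16. SLC2A10 was at 9.26 in 2N-2, 10.0 in 4N-2, 2.58 in 2N-3 and 5.29 in 4N-3. The clone that stood apart for this gene was therefore 2N-1, and the level of 4N-1 lay within the range of the others. An unmatched gene, ENSG00000256164, was the other one of 3 with 0 reads in 2N-1 and 300 or more in 4N-1, at 591 reads and at least 179-fold higher. No gene had the reverse.

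MBNL3, a muscleblind-like splicing regulator on chromosome X, went from 0.0685, 0.0723 and 0 reads per M to 5.00, 5.81 and 5.40 (5.27, SE 0.20, adjusted p = 1.02e-11) and was also called higher in pairs 2 and 3. GALC, which encodes the lysosomal enzyme galactosylceramidase (chromosome 14), went from 0.32, 0.41 and 0.271 to 14.5, 14.4 and 15.5 (5.11, SE 0.16, adjusted p = 8.65e-13). Among the clones GALC took 2 ranges without regard to ploidy: it was at 0.333 in 2N-1 and 0.274 in 4N-2 and between 4.05 and 14.8 in the other 4. SLAMF7, a receptor known from lymphocytes, rose by 4.25 (SE 0.23) from 0.0685, 0.193 and 0.0541 to 3.80, 3.69 and 3.43.

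The deepest fall was that of NUP210, which encodes a membrane protein of the nuclear pore (chromosome 3, 13316235 to 13420309). It went from 42.4, 46.4 and 51.3 reads per M to 0.0237, 0.042 and 0.0669, or 5676 reads to 6, with a change of -8.35 (SE 0.17, adjusted p = 2.76e-15). NUP210 was called lower in the other pairs too, by different amounts. In pair 3 it went from 30.2 in 2N-3 to 0.196 in 4N-3 (-6.66), and in pair 2 from 51.9 in 2N-2 to 22.3 in 4N-2 (-1.21). Of the other genes of the nuclear pore, none changed 2-fold; 14 of 29 fell, NUP210 included, and 1 rose, with a median of -0.40. That count was 4 without library C of 2N-1, 8 without B of 2N-1, 7 without A and 6 without B of 4N-1. It was 25 without the libraries 2N-3 A and 4N-3 C, which stand apart from others of their clones and enter the shared estimate of the spread.

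GPR143, a pigment cell receptor on chromosome X (9725346 to 9786297), fell from 30.9, 31.2 and 28.9 reads per M to 0.0712, 0.042 and 0 (-7.82, SE 0.24, adjusted p = 6.55e-13). Its neighbour SHROOM2 (9786456 to 9949443), which organises apical actin in pigment epithelium, fell from 9.70, 10.9 and 11.4 to 0.237, 0.441 and 0.312 (-4.67, SE 0.17, adjusted p = 7.39e-12). Both were also called lower in pair 3, with a mean of 0.0746 for GPR143 in 4N-3, whereas GPR143 rose in pair 2 (1.79). Other pigment epithelium markers did not share this fall: of 18 tested, 6 rose and GPR143 alone fell, and the regulators MITF and OTX2 had changes of -0.19 and -0.33 that did not pass. RPE65, the visual cycle isomerase, rose by 1.41 (SE 0.27) at under 1 read per M. The count that rose was 3 without B or C of 2N-1 or A of 4N-1, and 3 fell without the libraries 2N-3 A and 4N-3 C.

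ENG, which encodes the TGF-beta co-receptor endoglin (chromosome 9), fell from 5.89, 6.10 and 6.47 reads per M to 0.119, 0.126 and 0.178 (-4.70, SE 0.25, adjusted p = 8.22e-10). Across the clones it was at 0.312 in 2N-2 and 8.40 in 4N-2, so pair 2 had the opposite change (4.41). In pair 3 ENG was also called lower (-3.58), from 2.89 in 2N-3 to 0.152 in 4N-3. ZNF185, an actin-associated LIM protein gene on chromosome X, fell from 9.70, 9.64 and 11.4 to 0.878, 0.797 and 0.602 (-3.60, SE 0.14). It likewise rose in pair 2 (4.46) and fell in pair 3 (-0.76). EYA1, a developmental phosphatase and coactivator, fell by 5.06 (SE 0.34), CYP27A1, a sterol hydroxylase of mitochondria, by 4.29 (SE 0.26), and CHI3L1, a secreted chitinase-like protein, by 3.86 (SE 0.29) from 13.4, 11.0 and 10.2 to 0.403, 1.20 and 0.669. LYPD6, ZNF682 and ABCA8 fell by 3.83, 3.67 and 3.61.

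Several genes of the contractile apparatus were higher in 4N-1. Of 18 tested smooth muscle genes 9 rose, with a median of 0.52 over the list, and none fell. ACTA2, smooth muscle alpha-actin, went from 32.1, 35.0 and 37.7 reads per M to 175, 172 and 173 (2.31, SE 0.14, adjusted p = 6.07e-09). TAGLN, which encodes the actin-binding protein SM22, went from 90.1, 95.4 and 98.9 to 395, 387 and 413 (2.07, SE 0.17, adjusted p = 1.24e-07). MYL9, a regulatory light chain of myosin, went from 98.4, 101 and 96.9 to 405, 405 and 403 (2.03, SE 0.15, adjusted p = 5.06e-08). In each of these the libraries of a clone lay within a narrow band and the bands were far apart. LMOD1, which nucleates actin in smooth muscle, rose by 2.16 (SE 0.23). Members that define differentiated smooth muscle were not among the risers: CNN1 was at 0.251, 0.289 and 0.217 against 0.237, 0.21 and 0.312, MYH11 had a change of 0.43 (adjusted p = 0.241) and the coactivator MYOCD one of -0.37 (adjusted p = 0.342).

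Smaller rises ran through the actin cytoskeleton, where 15 of 30 genes rose and 3 fell with a median of 0.33. The count that fell was 1 without C of 2N-1 or A or B of 4N-1 and 6 without the libraries 2N-3 A and 4N-3 C. PDLIM5 and PDLIM7, adaptors of actin filaments, rose by 0.90 (SE 0.13) and 0.78 (SE 0.12), and VCL, which encodes vinculin, by 0.73 (SE 0.15). FHL1, a LIM protein, was called lower (-1.58, SE 0.25). Of the 24 genes of both lists that rose, 22 had promoters in RefSeq, and 7 of their 45 held the CArG box, the site of serum response factor, against 1.13% of promoters of all tested genes and 0 of 136 of the falling cell cycle genes. The letters searched were CC, then 6 of A or T, then GG, with no mismatch allowed. ACTA2 and LMOD1, named above, had no match to this exact form in the 250 bases before the start. The stretch of ACTA2 does hold ccctatatgg and ccttgtttgg, each 1 base off that form, so the search does not show that sites are absent. TAGLN and MYL9 were not in the promoter table.

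In the YAP and TAZ pathway 8 of 23 genes rose and 2 fell, with a median of 0.21. ANKRD1, a stretch-responsive nuclear protein gene, went from 340, 382 and 405 reads per M to 1253, 1295 and 1303 (1.78, SE 0.12, adjusted p = 1.99e-08). CCN2 and CCN1, matricellular protein genes also known as CTGF and CYR61, rose from 156, 159 and 158 to 381, 384 and 401 (1.30, SE 0.09) and from 238, 250 and 254 to 578, 594 and 615 (1.27, SE 0.10). In pair 3 CCN2 and CCN1 fell, by 0.84 and 0.92, and the difference between pair 1 and the other pairs passed for both (1.61 and 1.94). F3, which encodes tissue factor, rose by 0.95 (SE 0.15). Without the libraries 2N-3 A and 4N-3 C, 13 rose and 5 fell. The count that fell was 0 when C of 2N-1 was left out, and 1 when B of 2N-1 or any 1 library of 4N-1 was.

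Of the TGF-beta and BMP genes, 8 of 33 rose and 6 fell, with a median of 0.13. The ligand gene TGFB2 went from 101, 113 and 111 reads per M to 278, 286 and 315 (1.44, SE 0.12, adjusted p = 2.37e-07), and the ligand gene BMP4 rose by 1.08 (SE 0.12). Of their induced genes, ID2, an inhibitor of differentiation induced by BMPs, fell by 1.40 (SE 0.13). The count that rose was 5 whichever of the 6 libraries was left out, while without the libraries 2N-3 A and 4N-3 C 13 rose and 10 fell.

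Among collagen genes more rose than fell. Of 23 tested collagen chains 11 rose and 1 fell, with a median of 0.47, whereas in pair 2 3 rose and 15 fell with a median of -0.71. The difference between pair 1 and the other pairs passed above 0 for 15 chains and below 0 for 1. COL1A1, the main chain of type I collagen, went from 46.3, 47.6 and 44.6 reads per M to 158, 159 and 141 (1.72, SE 0.20, adjusted p = 1.16e-05). Its partner chain COL1A2 was under 1 read per M in all 6 libraries and fell (-0.87, SE 0.19). COL11A1, COL7A1 and COL8A2 rose by 1.35, 1.32 and 1.12.

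FN1, which encodes fibronectin and had the most reads per M of the genes called higher, went from 10545, 11140 and 10772 reads per M to 23038, 22181 and 23015 (1.07, SE 0.22, adjusted p = 0.00223). Of 40 tested proteoglycan and glycoprotein genes 15 rose and 4 fell, with a median of 0.25. LUM, the collagen-binding proteoglycan lumican, went from 26.6, 25.2 and 23.5 to 122, 122 and 135 (2.33, SE 0.21, adjusted p = 4.90e-07). It stood at 0.0505 in 4N-2, against 43.8 in 2N-2, and at 29.8 and 66.8 in 2N-3 and 4N-3. FMOD, the related fibromodulin, rose by 3.15 (SE 0.20) from under 1 read per M to 2.70, 2.58 and 3.05. CCDC80, a matrix-bound secreted protein, rose from 358, 379 and 369 to 1102, 1079 and 1188 (1.61, SE 0.15), and POSTN, which encodes periostin, by 1.34 (SE 0.19). The count that fell was 9 without the libraries 2N-3 A and 4N-3 C. The members that fell included TNC, which encodes tenascin C (-1.44, SE 0.17), and THBS2, a thrombospondin (-1.39, SE 0.35).

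Of 25 proteases and inhibitors that act on the matrix 11 rose and 4 fell, with a median of 0.30. Both plasminogen activator genes rose, PLAT from 112, 125 and 118 reads per M to 314, 314 and 318 (1.42, SE 0.12) and PLAU from 122, 126 and 125 to 278, 268 and 277 (1.14, SE 0.08), while SERPINB2, an inhibitor of both enzymes, fell by 2.16 (SE 0.21) and the metalloprotease inhibitor gene TIMP4 by 2.40 (SE 0.19). The count that fell was 2 without library B of 2N-1. TGM2, a transglutaminase that crosslinks matrix proteins, rose from 2084, 2056 and 1967 to 4400, 4280 and 4361 (1.10, SE 0.13). Of 18 integrin subunits 6 rose and 2 fell, with a median of 0.24, and 10 rose without the libraries 2N-3 A and 4N-3 C. ITGA11, which pairs with ITGB1 as a collagen receptor, went from 148, 163 and 148 to 427, 421 and 418 (1.47, SE 0.18), and ITGB4, which holds epithelial cells to laminin, fell by 1.15 (SE 0.26).

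**Figure D4:**
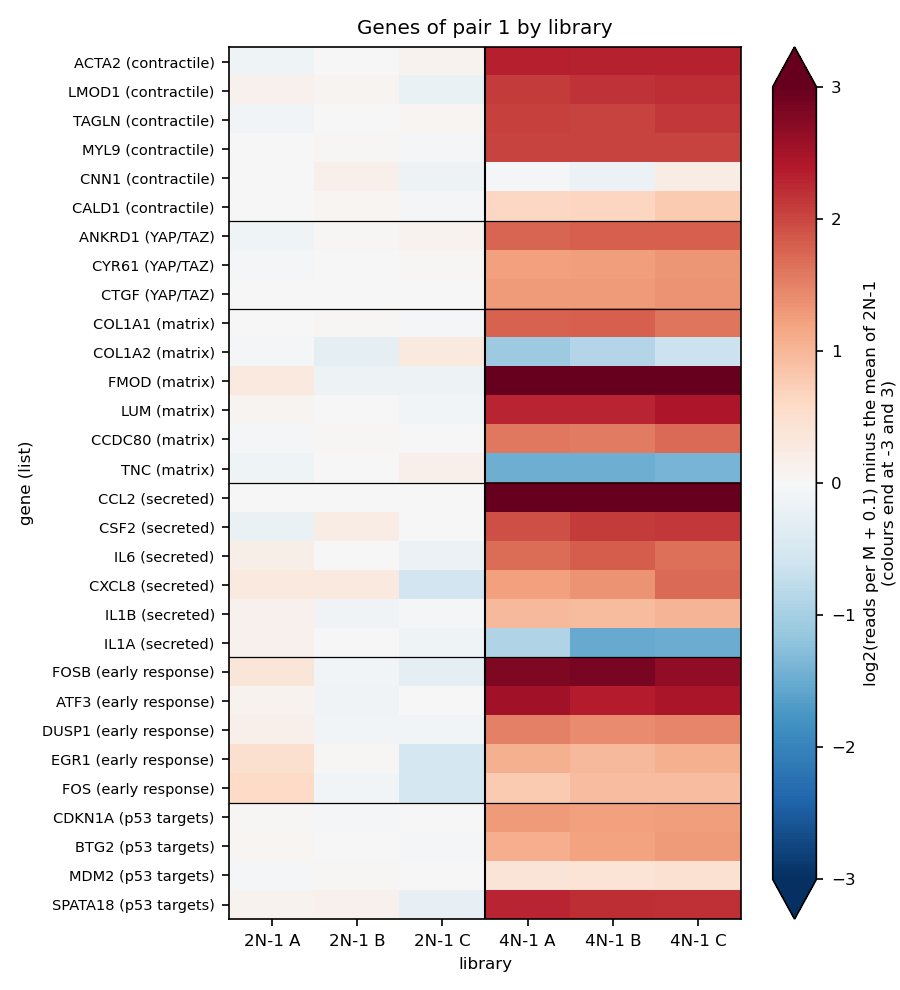
Level of 30 genes, chosen for their roles with their values known, in the 6 libraries of pair 1 (columns), as log2(reads per M + 0.1) minus the mean of 2N-1, with the colour scale ending at -3 and 3. The libraries of 4N-1 are blue for COL1A2, TNC and IL1A, mixed for CNN1 and red for the other genes, and within 2N-1 EGR1 runs from 44.0 in library A to 22.0 reads per M in library C.

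Secreted factors known from senescent cells leaned higher: 10 of 20 tested rose and 2 fell, with a median of 0.75. CCL2, a chemokine that draws monocytes, had 0 reads in 2N-1 and 1.90, 1.95 and 1.56 reads per M in 4N-1, at least 73.5-fold higher from 243 reads. It was at 44.5 in 2N-2 and 0.763 in 4N-2, so its level in 4N-1 was low beside that of the second diploid clone. IL6, which encodes interleukin 6, went from 6.76, 6.10 and 5.28 to 19.3, 21.5 and 19.3 (1.72, SE 0.25, adjusted p = 0.000117). CSF2, a myeloid growth factor gene, rose by 2.05 (SE 0.30), the neutrophil chemokine gene CXCL8 by 1.43 (SE 0.24) and IL32 by 1.38 (SE 0.23), each at 2.34 reads per M or less. IL1A, which encodes interleukin 1 alpha, fell by 1.31 (SE 0.28).

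Interferon-stimulated and antigen presentation genes moved in both directions, with 9 of 37 higher, 7 lower, none called and a median of 0.08. OAS3, a sensor of double-stranded RNA, had the largest change (-0.98, SE 0.19), and HLA-B, a class I antigen-presenting molecule, rose by 0.86 (SE 0.14). The count that rose was 3 to 5 without B or C of 2N-1 or without any 1 library of 4N-1.

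Of 20 immediate early genes, which respond within minutes to growth factors, 11 rose and 1 fell, with a median of 0.55, and 7 rose without library A of 4N-1. None fell whichever library of pair 1 was left out, and 2 fell without the libraries 2N-3 A and 4N-3 C. FOSB, a partner of JUN in AP-1, went from 4.95, 3.61 and 3.09 reads per M to 27.2, 28.2 and 24.5 (2.77, SE 0.24, adjusted p = 3.94e-07). ATF3, a stress-induced repressor, went from 1.28, 1.08 and 1.16 to 7.19, 6.46 and 6.82 (2.44, SE 0.16, adjusted p = 1.03e-08), and DUSP1, a phosphatase of MAP kinases, rose by 1.46 (SE 0.10). EGR1, the early growth response factor, was spread in 2N-1, at 44.0, 32.1 and 22.0, and was at 65.4, 61.9 and 66.0 in 4N-1 (1.03, SE 0.29, adjusted p = 0.0172). EGR1 lost its call without C of 2N-1 or without A or C of 4N-1. FOS, at 21.3, 13.3 and 9.77 against 24.3, 26.7 and 26.9, did not pass (0.88, adjusted p = 0.186). In pair 3 none of the 20 rose and 9 fell, and EGR1 was at 2.75 and 2.67 in 4N-2 and 4N-3 against 47.4 and 54.6 in 2N-2 and 2N-3. The difference between pair 1 and the other pairs passed above 0 for 11 genes and below 0 for 1.

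Genes of cholesterol synthesis and uptake were lower, with 15 of 24 falling, 1 rising and a median of -0.49. SQLE, which encodes squalene epoxidase, went from 138, 134 and 140 reads per M to 65.6, 65.3 and 71.4 (-1.03, SE 0.09, adjusted p = 3.19e-07). HMGCS1, which encodes a synthase early in the pathway, fell by 1.01 (SE 0.12) and was below 2-fold without A of 2N-1 or A or B of 4N-1. The riser was EBP, a sterol isomerase, from 11.1, 11.9 and 12.3 to 33.3, 34.6 and 33.3 (1.52, SE 0.15, adjusted p = 2.08e-06). EBP was at 49.8 in 2N-2, 63.0 in 4N-2, 49.3 in 2N-3 and 46.4 in 4N-3, so 2N-1 was the lowest clone. In pair 2, 22 of the 24 fell, with a median of -1.28.

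In the stress and metabolic lists 0 of 25, 2 of 16 and 1 of 24 genes were called at 2-fold or more, beside 4.34% of all tested genes. In the unfolded protein and integrated stress response 7 of 25 rose (12 without the libraries 2N-3 A and 4N-3 C), led by the transcription factor gene XBP1 (0.95, SE 0.09), and 2 fell. Of 16 heat shock genes 5 rose, HSPB7 and the lens and muscle chaperone gene CRYAB (2.03, SE 0.21) among them, and 1 fell. HSPA1A and HSPA1B, whose sequences are nearly identical, rose by 0.68 and 0.67, and their reads may not be separable. Beside SLC2A10, 1 other gene of 24 of glucose transport and glycolysis rose and 3 fell. The fall counts of these lists, 2, 1 and 3, became 5, 4 and 8 without the libraries 2N-3 A and 4N-3 C, and 1, 0 and 1 without B or C of 2N-1 or A or B of 4N-1. The first was also 1 without C of 4N-1, and 1 glucose gene rose without C of 2N-1.

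Families laid out in clusters showed gene-by-gene differences. Of 13 tested HOX genes, which specify position along the body axis, 5 rose and 2 fell, and both that fell, HOXA3 and HOXA11, met the minimum of reads through 2N-1 alone. HOXA3 went from 5.71, 4.94 and 4.6 reads per M to 0.0712, 0.126 and 0.134 (-4.63, SE 0.21, adjusted p = 9.37e-11) and was at 0.0906 and 0.0736 in 4N-2 and 4N-3, against 10.3 and 4.93 in 2N-2 and 2N-3. HOXB7 and HOXB9 rose from 3.54, 3.37 and 4.68 to 12.9, 13.9 and 13.2 (1.77, SE 0.14) and from 2.83, 2.63 and 3.71 to 10.0, 10.7 and 10.3 (1.74, SE 0.17), and both fell in pair 3. Of 14 protocadherin beta genes, single-exon adhesion genes on chromosome 5, 5 rose and 2 fell, with PCDHB5 from 1.21, 1.28 and 1.35 to 9.82, 10.8 and 11.4 (2.96, SE 0.14) and PCDHB2 down by 2.06 (SE 0.31). The count that rose was 2 or 3 whichever library was left out, and the count that fell was 4 without the libraries 2N-3 A and 4N-3 C. Of 5 tested MAGE genes 4 rose, led by MAGEH1 (2.22, SE 0.15).

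Called genes also lay next to each other. There were 16 runs of 3 or more neighbouring tested genes called in the same direction, 12 higher and 4 lower, with 64 genes in all. The longest held 9 genes of the UGT1A cluster of glucuronosyltransferases on chromosome 2 (233617645 to 233773310), with changes from 3.81 to 4.05. They had 7 to 14 reads each over the 3 libraries of 2N-1. All met the minimum of reads through 4N-1 alone, so they had to differ to be tested. UGT1A1 went from 0.0685, 0.145 and 0.135 reads per M to 3.18, 3.76 and 3.41. These genes share their last exons, so the same reads may have been counted for several of them. All 9 were also called higher in pair 3, and all 9 were called lower in pair 2, where UGT1A1 had a change of -2.51. A run of 8 genes on chromosome 7 (144183466 to 144356181) and one of 5 on chromosome 4 (49233289 to 49580189) hold near-identical copies, CTAGE4 with CTAGE8 and the pseudogenes around SNX18P23, and their reads may not be separable. Runs of 4 held HOXA3, AC004080.6, HOXA11 and HOXA11-AS (lower), INMT-MINDY4, MINDY4, AC004691.2 and AQP1 (higher), and BUB1B, BUB1B-PAK6, PAK6 and PLCB2 (lower). Each of these contains a readthrough or antisense transcript that overlaps its neighbour. HOXA11-AS lost its call without A or B of 2N-1 or A of 4N-1. Beside the UGT1A genes, CTAGE4, CTAGE8 and the pseudogenes SNX18P23, AC118282.1, AC119751.1 and AC119751.4 met the minimum of reads through 4N-1 alone. HOXA3, AC004080.6, HOXA11 and PLCB2 met it through 2N-1 alone.

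Adhesion and signalling lists completed the comparison. Of 19 tested genes of the epithelial to mesenchymal transition 4 rose and 3 fell; ESRP1, an epithelial splicing factor, fell by 2.32 (SE 0.23), and SNAI2, which encodes the repressor Slug, rose by 0.95 (SE 0.12). The count that rose was 2 without C of 2N-1 or B or C of 4N-1, and the count that fell was 5 without the libraries 2N-3 A and 4N-3 C. Of 9 keratins 5 rose, with a median of 0.43 over the list, and none fell. KRT18 went from 269, 261 and 267 reads per M to 428, 442 and 450 (0.73, SE 0.14). Of 29 Notch and WNT genes 7 rose and 4 fell (7 without the libraries 2N-3 A and 4N-3 C). HES1, the target of Notch, went from 24.7, 24.3 and 24.4 to 58.2, 61.0 and 54.2 (1.24, SE 0.17). It fell in pair 2 (-2.33) and in pair 3 (-1.17). SFRP1, a secreted WNT antagonist, went from 1581, 1601 and 1647 to 3234, 3203 and 3491 (1.04, SE 0.11), and was below 2-fold without C of 4N-1. Among markers of other cell types 4 of 12 tested fell and 2 rose. PDGFRA, a growth factor receptor of fibroblasts, fell by 1.34 (SE 0.24), and the neuronal gene SNAP25 rose by 1.06 (SE 0.17). Markers of the same cell type did not move together. TUBB3, also neuronal, fell by 0.70 (SE 0.14). Of the fibroblast and pericyte markers, CSPG4 fell by 0.50 (SE 0.11) and RGS5 rose by 0.48 (SE 0.13). The part of other cell types in these results was not tested.

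**Figure D5:**
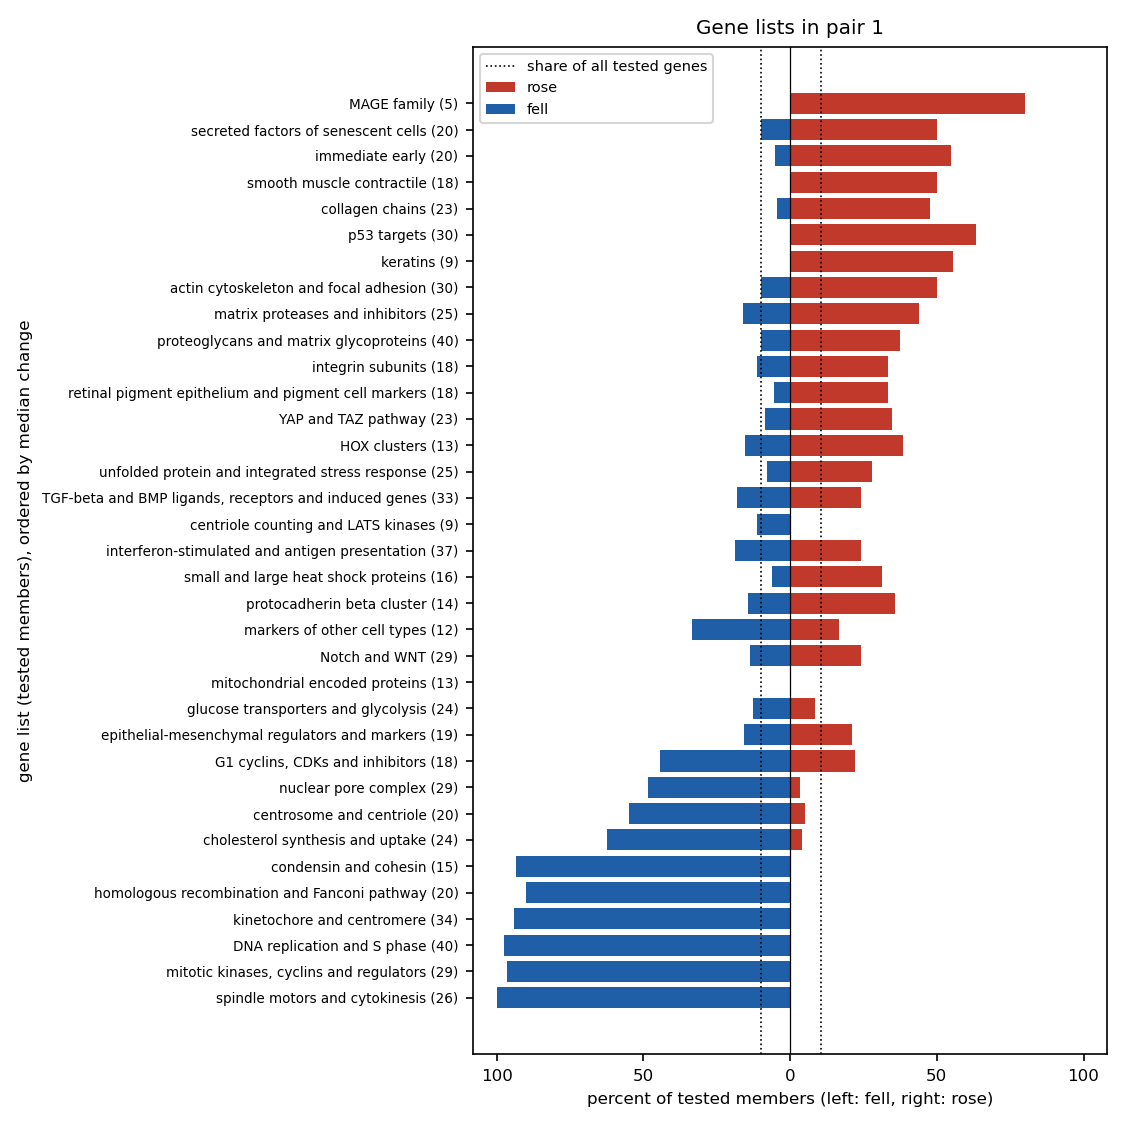
Share of the tested members of each of 35 gene lists that rose (to the right) or fell (to the left) in pair 1, in percent. Dotted lines mark the share of all tested genes that rose (10.7%) and fell (9.77%); the lists of mitosis and replication lie far past the line on the falling side with no riser.

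Part of the comparison recurred in the other pairs and part ran against them. Of the 445 genes called higher here, 130 were among the 1133 called higher in pair 2, 118 among the 205 called higher in pair 3, and 51 were called higher in all pairs. CCND2 and MBNL3 were among these 51. In pair 2, 111 of the 445 were called in the opposite direction, and 22 were in pair 3. Of the 501 genes called lower, 69 were among the 1491 called lower in pair 2 and 89 among the 257 of pair 3, 29 were called lower in all pairs, HOXA3 among them, and 372 were called lower in neither of the other pairs. The difference from the mean of the other pairs was itself called in the same direction for 264 of the 445 and 371 of the 501.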

How the data were processed

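Total polyadenylated RNA of 18 libraries (6 clones, 3 replicates each) was sequenced with a stranded TruSeq kit, per the labels' protocols. The submitters' processing notes name CASAVA 1.8.2, TopHat2, edgeR and hg19; the annotation release and the strand setting of counting are not given in the sources used here. The authors deposited 1 table of RPKM values. For 86.1% of 17267 genes with over 50 reads the implied length lay within 0.5% of the genomic span, introns included, so lengths were taken out again: 100% of values in the libraries compared came out as whole reads within 0.01 reads.

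Recovered reads were divided by the divisor implied for each library to give reads per M (36.9 to 47.7 M in pair 1). Values log2(reads per M + 0.1) were fitted with limma 3.58.1 (R 4.3.3), with a mean per clone over all 18 libraries and a trend in the spread (12 residual degrees of freedom). Tests were two-sided, and p-values were adjusted over all 21778 tested genes. Intervals of read ratios (95%) and bounds against 3 reads cover counting error only. GENCODE v29 matched 52338 genes.

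Named genes were the 12 largest rises and falls with non-overlapping clones and 300 or more reads, genes at 0 reads in 1 clone, the 6 longest runs, up to 6 members per list, a fixed set of cell cycle genes, the 8 largest differences from the other pairs and the 6 calls with the most reads per M per direction. Members and lists were chosen with earlier results of these data known. Chromosome medians are per chromosome and not per arm. All starts listed for a gene were searched for motifs, and TAGLN and MYL9 were not in the promoter table. Alternatives were other scalings, pseudocounts, minimums of reads, limma-voom, the RPKM values as deposited, a replicate block and leaving out libraries. The fit was tested on simulated data. Results on some genes are not reported here.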

Additional observations from a re-analysis of the deposited data

Results flagged for a closer look

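The genes below had a change in pair 1 that differed from the mean change of pairs 2 and 3, by the test of the difference itself in limma, and were the 8 called genes per direction with the largest such difference (log2).

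On the higher side the differences were 7.92 for CCL2, 6.46 for GALC, 5.89 for LUM, 5.37 for FOSB, 5.27 for HSPB7, 5.26 for EGR1, 5.16 for SLC2A10 and 3.87 for ABCC3. In CCL2, GALC, LUM, FOSB, EGR1 and ABCC3 pair 2 changed in the opposite direction. ABCC3, which encodes a multidrug resistance-associated transporter, went from 41.4, 41.1 and 38.8 reads per M in 2N-1 to 99.8, 100 and 87.0 in 4N-1 (1.24, SE 0.25) and fell by 4.50 in pair 2. Its level was 1.20 in 4N-2 and between 29.6 and 95.6 in the other clones.

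On the lower side the differences were -5.45 for ZNF185, -5.12 for ENG, -5.00 for GPR143, -4.77 for PINCR, -4.41 for NUP210, -3.76 for ESM1, -3.74 for ZNF682 and -3.73 for SHROOM2. PINCR, a long noncoding RNA gene on chromosome X, went from 0.708, 0.651 and 0.379 reads per M to 0.0474, 0.168 and 0.134 (-1.66, SE 0.30) and rose by 5.53 in pair 2. ESM1, which encodes endocan, went from 1.19, 1.45 and 1.60 to 0.64, 0.588 and 0.624 (-1.06, SE 0.34, adjusted p = 0.0359) and rose by 3.33 in pair 2 and 2.06 in pair 3. The call of ESM1 in pair 1 was lost whichever of the 6 libraries was left out. ZNF682 and ENG rose by 2.99 and 4.41 in pair 2 and fell by 2.85 and 3.58 in pair 3.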

How the results depend on the processing

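Of 257 named genes, none turned the direction of its change under an alternative that tested it; 129 were not tested in the RPKM alternative and 25 not at a minimum of 50 reads. The balance at any fold did turn with scaling: 2320 genes rose and 2127 fell as reported, against 2133 and 2299 with median-of-ratios size factors and 1610 and 2995 with total reads in genes. With the RPKM values as deposited, log2(RPKM + 0.5) and a minimum of 1 RPKM, 8847 genes were tested, 53 were called higher and 76 lower, and the difference from the other pairs was called for 322. A pseudocount of 0.5 reads per M gave 269 higher, 349 lower and 1222 differences. Leaving out 1 library gave 400 to 474 higher calls, 446 to 544 lower calls and 1641 to 1969 differences, against 445, 501 and 1862. Scaling by total reads in genes gave 369 higher and 591 lower calls and shifted the median change by -0.07; 35.0% of the genes that passed at any fold then rose, against 52.2%. With only the 6 libraries of the pair, 456 genes were called higher and 507 lower, and 4938 rose and 4423 fell at any fold, against 2320 and 2127. Without the libraries 2N-3 A and 4N-3 C the calls were 455 and 507, and 4876 rose and 4459 fell. With replicate letters as a replicate block the calls were 438 higher, 499 lower and 1838 differences. The letters did not pair the samples: the correlations of same-lettered libraries were 0.04 for A, 0.0065 for B and 0.12 for C, and only the C libraries correlated best with their own letter. Libraries of 37.2 M reads or more leave 652 genes just under the minimum of 10 reads in 3 libraries.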
